A study of Mus musculus with 8 samples.

Results

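Cycling cartilage cells were single cells from the parietal bone of newborn mice that expressed the cartilage gene Col2a1 and genes of dividing cells together. A member had at least 500 detected genes, under 10% mitochondrial reads, and Col2a1 (the type II collagen chain) above 1% of its unique molecular identifiers (UMIs, each standing for 1 captured RNA molecule). It was also selected on detection of 3 or more of Mki67, Top2a, Cdk1, Ccnb1, Cenpf and Birc5, and cells that counted as osteoblasts (10 or more UMIs of Col1a1 and 2 or more UMIs of each of 2 genes among Runx2, Sp7 and Ibsp) were left out. The rule found 855 members among the 15370 cartilage cells, meaning all cells above the Col2a1 limit and outside the osteoblast criteria (5.56%). The whole data set held 46420 cells after quality control, so members made up 1.84% of it. The comparison cells were the 13995 cartilage cells of the same libraries with at most 1 of the 6 genes detected. The osteoblast criteria removed 171 cells above the Col2a1 limit, 13 of which had at least 3 of the 6 genes.

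The 8 libraries came from parietal bone at postnatal days 4 to 5, and all pups belonged to the strain B6.129(FVB)-Col1a2tm1Mcbr/J. WT libraries (S1, S2, S5 and S6) were compared with libraries of pups heterozygous (Het) for the G610C substitution of Col1a2, which replaces a glycine by cysteine in a chain of type I collagen (S3, S4, S7 and S8) and models osteogenesis imperfecta. Each library pooled cells from several pups, and libraries served as replicates. The mutation is in the germline, so every cell type carried it, cartilage cells included. Libraries S1 to S4 were made with the 10x Genomics 3′ v3 kit and S5 to S8 with v3.1, and the release of the counting software changed with the kit.

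Members numbered 395 in WT and 460 in Het libraries. There were 9 in S1, 22 in S2, 65 in S3, 62 in S4, 208 in S5, 156 in S6, 149 in S7 and 184 in S8. S1, with 9 members, was left out of every test that needed at least 10, and its values are shown beside the others. Their summed depth ran from 149166 UMIs (S1) to 4131689 UMIs (S6), and the median member held from 6804.5 UMIs (S4) to 25357.5 UMIs (S6). The median member was 1.40 to 1.60 times as deep as the median comparison cell in 7 libraries. In S5 the ratio was 14.7, because the median comparison cell there held only 1009 UMIs. Col2a1 was also found in barcodes that failed the gene limit, at up to 1.32% of their UMIs (S5), which lies above the Col2a1 limit for cells.

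S1 and S2 stood apart in a second way. Of the members, 132 (15.4%) had at least 2 detected markers of 1 other cell class (haematopoietic, erythroid, endothelial, mural, muscle, nerve or epithelial). Their share was 66.7% in S1 and 31.8% in S2, against 5.43% to 19.4% in the other libraries, and it was 5.45% to 34.8% among comparison cells. Cells nearest to simulated doublets made up 129 members, 9.23% to 22.1% per library, against 1.64% to 8.71% of comparison cells. Doublets were kept, and results were recomputed without both kinds of cells. Pairs of libraries shared 1 to 24 cell barcodes, at most 0.558% of the smaller library, and no member barcode occurred in more than 1 library.

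The label was checked against genes that the rule did not use. The median haematopoietic-like cell had 0 (S1) to 6 (S7) of 9 other cartilage genes detected (Acan, Col9a1, Col9a2, Col9a3, Col11a1, Col11a2, Matn1, Matn3 and Hapln1), against 9 in the median member of each library. Detection thus differed between the cells but was not limited to cartilage cells. By level, those 9 genes together took from 3.78% (S3) to 5.76% (S8) of member UMIs, against 3.99% to 6.09% in comparison cells. In haematopoietic-like cells of the same libraries they took 0.00614% to 0.126%. Col2a1 itself, on which the cells were chosen, was 2.88%, 3.13%, 2.52%, 3.31%, 3.84%, 3.93%, 3.82% and 3.92% of member UMIs in S1 to S8. It was 3.04%, 3.17%, 3.01%, 3.07%, 4.04%, 4.24%, 4.38% and 4.16% in comparison cells, and 0.00249% to 0.0713% in haematopoietic-like cells. The summed level of the 9 genes in members lay near that of comparison cells and far above that of haematopoietic-like cells in every library. Haematopoietic-like cells were taken only up to the Col2a1 limit, so their low Col2a1 followed from the choice. That choice left out 4 (S2) to 50 (S5) cells with these markers above the limit, so the contrast with them is a description.

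Cartilage grows by division of chondrocytes, which keep depositing type II collagen and aggrecan while they divide and later stop dividing, enlarge and switch to type X collagen. Division needs DNA replication in S phase, driven by the MCM helicase, replication polymerases and nucleotide synthesis under E2F factors. It then needs entry into mitosis in the G2 and M phases, driven by cyclin B with Cdk1 and by Aurora and Polo kinases. Promoters of G2/M genes typically carry CCAAT boxes, bound by NF-Y, and the CHR element, bound by the DREAM and MuvB complexes, while promoters of S phase genes often carry E2F sites. Indian hedgehog, parathyroid hormone-related protein, FGFR3, IGF and BMP signals set how long chondrocytes divide.

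The 6 selection genes were often detected together. None of the 6 was detected in 11053 cartilage cells, 1 in 2942, 2 in 520, 3 in 165, 4 in 130, 5 in 177 and all 6 in 383. The last group was the commonest among members. In member sums Top2a, the topoisomerase that untangles replicated DNA, ran from 0.0950% (S7) to 0.165% (S1) of UMIs, against 0.000389% to 0.00151% in comparison cells. Mki67, the antigen used to stain dividing cells, ran from 0.0495% to 0.0975%. Cenpf, a kinetochore protein, ran from 0.0519% to 0.113%, and Cdk1, the mitotic kinase, from 0.0331% to 0.0603%. Birc5 (survivin) ran from 0.0309% to 0.0657% and Ccnb1 (cyclin B1) from 0.0101% to 0.0228%. These levels chose the cells and carry no test.

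Both phases were present among members. The S phase list (43 genes) took 0.438%, 0.413%, 0.329%, 0.376%, 0.316%, 0.306%, 0.336% and 0.384% of member UMIs in S1 to S8, against 0.0549% to 0.0787% in comparison cells. The list of 51 G2/M genes outside the rule took 1.34%, 1.20%, 1.27%, 1.19%, 1.11%, 1.01%, 0.913% and 1.09%, against 0.0789% to 0.0928%. No library of one class reached the level of any library of the other on either list. All 43 S phase genes and all 51 G2/M genes were higher in members (median log2 difference 2.498 and 5.948), which follows from the choice of cells and is given as values only. Rrm2 (ribonucleotide reductase) had a median of 0.0250% in members and 0.000379% in comparison cells over the 8 libraries. Pcna, the sliding clamp, had 0.0103% and 0.00283%. Among G2/M genes Hmgb2 had 0.159% and 0.00885%, and Ube2c, the ubiquitin-conjugating enzyme of the anaphase-promoting complex, 0.0510% and 0.000445%.

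Cells were also described by the number of selection genes detected. Most of these are G2/M genes and their detection follows depth (in S5 the median cell held 1023 UMIs with 0 of the genes and 19683 with 6), so the values below are a description of the choice. As a mean of the 8 libraries, the S phase list rose from 0.0602% with none of the 6 genes to 0.0788%, 0.138%, 0.308%, 0.316% and 0.497% with 1 to 5 genes, and was 0.311% with all 6. The G2/M list was 0.0831%, 0.0903%, 0.116% and 0.241% with 0 to 3 genes, 0.817% with 5 and 1.66% with all 6. The S phase list was at its highest mean in cells with 5 of the genes and the G2/M list in cells with all 6. Of the members, 20.6% held more UMIs of the S phase list than of the G2/M list, from 4.55% (S2) to 26.1% (S8) per library. Cells just inside the limit, with 3 of the genes, had 0.298% of their summed UMIs in the S phase list and 0.203% in the G2/M list, and the 520 cells just outside, with 2, had 0.144% and 0.111%. At the other limit, 18 members with Col2a1 from 1% to 1.1% had 1.005% in the G2/M list and 2.20% in the 9 cartilage genes, and 14 cells with Col2a1 from 0.9% to 1% that met the rest of the rule had 0.669% and 1.57%.

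**Figure D1:**
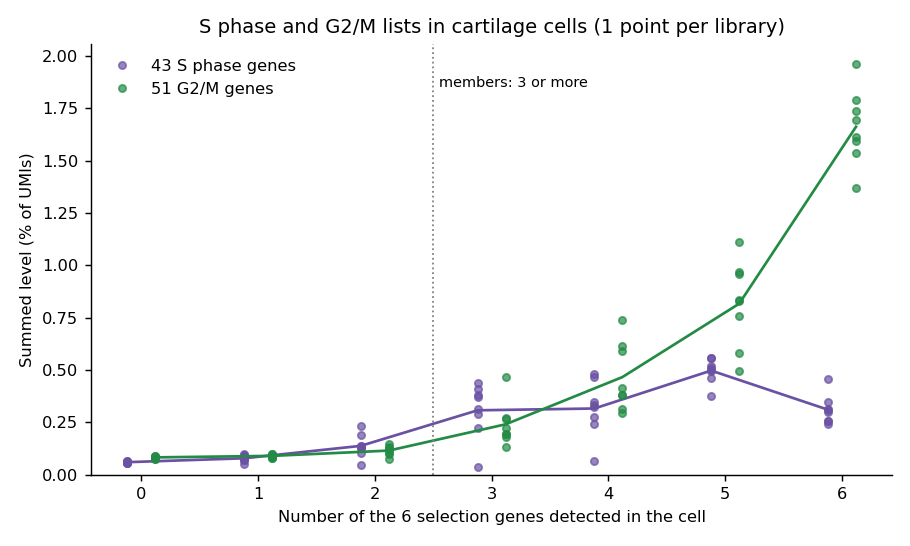
Summed level of the 43 S phase genes and of the 51 G2/M genes outside the rule (vertical axis, % of UMIs) in cartilage cells by the number of the 6 selection genes detected (horizontal axis), with 1 point per library, lines through the means of the 8 libraries, and a dotted line at the limit for members. The G2/M list climbs to 1.66% with all 6 genes, while the S phase list peaks at 0.497% with 5.

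The promoters of the cycle genes were read for the sequence elements named above. RefSeq windows from 250 bases before to 50 bases after each start (GRCm38.p6) covered 43 of the 51 G2/M genes and 31 of the 43 S phase genes. The letters searched, on both strands and with overlaps allowed, were CCAAT for the CCAAT box, TTTGAA or TTCGAA for the CHR, and TTTCCCGC, TTTGGCGC, TTTCGCGC or TTTGCCGC for E2F-type sites. A match is a description of the letters, not a bound site or a cause. Shown are 4 genes of mitosis and 2 of the replicative helicase, because they hold the elements in different combinations, with CCAAT, CHR and E2F-type matches in capitals on either strand. Ccnb2 (cyclin B2, chr9:70421505-70421804, minus strand), Cdc20 (activator of the anaphase-promoting complex, chr4:118437294-118437593, minus strand), Plk1 (Polo-like kinase, chr7:122159185-122159484, plus strand) and Aspm (a spindle pole protein, chr1:139454523-139454822, plus strand) hold CCAAT boxes with a CHR. Mcm5 (chr8:75109259-75109558, plus strand) and Mcm6 (chr1:128359656-128359955, minus strand) hold CCAAT boxes with E2F-type letters and no CHR.
Ccnb2: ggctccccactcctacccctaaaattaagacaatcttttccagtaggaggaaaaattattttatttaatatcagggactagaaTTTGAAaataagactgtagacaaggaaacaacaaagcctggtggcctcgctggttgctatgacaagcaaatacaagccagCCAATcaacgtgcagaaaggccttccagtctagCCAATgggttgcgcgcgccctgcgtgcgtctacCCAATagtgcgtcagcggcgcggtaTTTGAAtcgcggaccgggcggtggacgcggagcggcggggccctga
Cdc20: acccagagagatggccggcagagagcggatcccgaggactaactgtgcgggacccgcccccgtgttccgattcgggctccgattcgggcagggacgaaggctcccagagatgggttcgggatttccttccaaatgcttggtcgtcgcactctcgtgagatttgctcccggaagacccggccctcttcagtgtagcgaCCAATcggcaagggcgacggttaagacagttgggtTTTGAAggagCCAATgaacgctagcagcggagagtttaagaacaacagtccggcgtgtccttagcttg
Plk1: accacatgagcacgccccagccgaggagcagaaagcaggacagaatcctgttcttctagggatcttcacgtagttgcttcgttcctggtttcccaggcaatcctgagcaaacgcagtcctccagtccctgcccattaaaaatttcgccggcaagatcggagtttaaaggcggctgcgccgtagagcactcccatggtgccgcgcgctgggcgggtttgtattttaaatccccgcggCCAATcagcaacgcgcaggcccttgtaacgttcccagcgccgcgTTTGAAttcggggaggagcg
Aspm: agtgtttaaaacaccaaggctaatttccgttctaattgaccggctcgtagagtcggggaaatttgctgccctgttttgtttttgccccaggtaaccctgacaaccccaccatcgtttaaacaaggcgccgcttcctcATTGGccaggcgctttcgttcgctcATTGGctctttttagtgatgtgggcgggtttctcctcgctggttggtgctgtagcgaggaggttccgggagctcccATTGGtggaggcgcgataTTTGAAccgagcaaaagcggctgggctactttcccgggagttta
Mcm5: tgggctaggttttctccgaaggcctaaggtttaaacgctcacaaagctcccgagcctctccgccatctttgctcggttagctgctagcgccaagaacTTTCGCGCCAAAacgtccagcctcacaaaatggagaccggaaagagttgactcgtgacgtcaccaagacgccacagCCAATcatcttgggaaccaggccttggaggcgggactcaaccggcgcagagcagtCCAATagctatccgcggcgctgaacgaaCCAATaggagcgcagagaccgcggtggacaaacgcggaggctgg
Mcm6: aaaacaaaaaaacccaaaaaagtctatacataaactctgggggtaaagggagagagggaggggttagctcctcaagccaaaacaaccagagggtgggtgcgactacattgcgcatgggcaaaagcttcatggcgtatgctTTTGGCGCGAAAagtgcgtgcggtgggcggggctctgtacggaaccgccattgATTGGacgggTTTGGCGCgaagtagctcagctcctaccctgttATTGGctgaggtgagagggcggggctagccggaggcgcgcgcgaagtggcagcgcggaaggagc

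A CHR was in 72.9% of the 48 G2/M windows and 17.6% of the 34 S phase windows, against 19.2% of all 32851 windows and 14.1% of the windows of tested genes. A CCAAT box was in 36 of the 48 G2/M windows and in 67.6% of the S phase windows, against 37.4% of all windows and 37.9% of those of tested genes. Both together were in 58.3% of G2/M and 11.8% of S phase windows, against 7.53% of all and 5.83% of those of tested genes. E2F-type letters were in 35.3% of S phase windows and 4.17% of G2/M windows, against 2.27% of all and 3.92% of those of tested genes. The G2/M share thus lay near that of tested genes. The same reading was made for 248 genes outside both lists and the rule that were higher in members by at least 3 log2 units and passed the test below, of which 164 had a window. Among their 192 windows 43.8% held a CHR, 59.4% a CCAAT box, 30.7% both and 13.5% E2F-type letters. These genes, Aspm among them, were picked by the same comparison of dividing cells, so their shares are a description and not a separate reading. The 285 genes lower by at least 1 log2 unit had a CHR in 14.9% and a CCAAT box in 37.3% of 255 windows, close to the shares of all tested genes.

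Members and comparison cells of the same library were then compared over all genes, to describe what else distinguished dividing cartilage cells. Counts were summed per library and class and tested with edgeR, with the library as a block, over 7 libraries. Of 12724 genes tested, 6615 (52.0%) passed an adjusted p of 0.05, 3343 higher (26.3%) and 3272 lower (25.7%), so shares of a list are read against about 1 gene in 4 each way. The median of all tested genes was -0.03 on the log2 scale. Averaging log2 values over cells in place of summing counts (limma) moved that median to 0.29 and the split to 6241 higher and 190 lower, so small changes below are relative to the scaling. With comparison cells drawn to match the members on UMIs per cell, which was possible in 6 libraries, 2737 genes were higher and 2535 lower, and 5015 of the 5272 were among the 6615. With Col2a1 above 3% the split was 2531 higher and 4024 lower.

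Beyond the cycle lists, chromatin, tubulin and nuclear transport genes rose as a group. All 24 were higher (median log2 change 1.68), and the list took 1.06% to 1.72% of member UMIs against 0.318% to 0.399% in comparison cells, with no overlap between libraries. H2afz, the replication-independent histone H2A.Z (ENSMUSG00000037894, GRCm38 chromosome 3, 137864487 to 137866922), was 0.352%, 0.273%, 0.261%, 0.267%, 0.215%, 0.195%, 0.180% and 0.224% of member UMIs in S1 to S8 and 0.0142% to 0.0218% in comparison cells. It was higher in every library, by a log2 change of 3.67 (SE 0.06, edgeR adjusted p = 5.42e-19). Stmn1 (stathmin, which destabilizes microtubules) rose by 5.64 (SE 0.10, adjusted p = 3.05e-18), from a median of 0.00191% to 0.103%. H2afx rose by 3.80, the lamin gene Lmnb1 by 3.13, the tubulin gene Tuba1b by 2.59, the Polycomb methyltransferase Ezh2 by 2.26 and the maintenance DNA methyltransferase Dnmt1 by 1.93. Lmna, the lamin gene typical of differentiated cells, rose by only 0.36.

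Nucleotide synthesis genes mostly rose. Of 19 genes 11 rose and 1 fell (median 0.32). Tk1 (thymidine kinase 1) rose by 5.92 (SE 0.11, adjusted p = 3.07e-18), from a median of 0.000234% to 0.0163% of UMIs, and Dut, which removes dUTP, by 2.02. Both rises go with the choice of dividing cells and are a description. Umps, of pyrimidine synthesis, rose by 1.11. Impdh1, the less inducible isoform of the guanine nucleotide enzyme, fell by 0.89 on the log2 scale (SE 0.13, adjusted p = 1.13e-05). The list took 0.101% to 0.154% of member UMIs against 0.0589% to 0.0724%.

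The cyclins, inhibitors and brakes of G1 moved both ways, 11 of 25 up and 10 down (median 0.22). Cdkn2c (p18 INK4c, an inhibitor of Cdk4 and Cdk6, chromosome 4, 109660876 to 109667189) was 0.0194%, 0.0183%, 0.0163%, 0.0201%, 0.0181%, 0.0160%, 0.0155% and 0.0199% of member UMIs in S1 to S8 and 0.00144% to 0.00233% in comparison cells. The classes did not overlap, and the log2 change was 3.06 (SE 0.08, adjusted p = 2.03e-16). Cdkn2d (p19 INK4d) rose by 2.44, the pocket protein Rbl1 by 2.28, E2f1 by 2.22, Ccng2 by 1.93 and Rb1 by 1.22. Ccnd2 (cyclin D2, chromosome 6, 127125162 to 127152193) went the other way. It was 0.00335%, 0.00917%, 0.0163%, 0.0132%, 0.00683%, 0.00704%, 0.00585% and 0.00724% in members and 0.0130% to 0.0340% in comparison cells. It was lower in members within each library and fell by 1.22 on the log2 scale (SE 0.07, adjusted p = 6.54e-11). Myc fell by 0.97, Gadd45a by 0.89 and the antiproliferative Btg2 by 0.78. Cdkn1c (p57 KIP2, an inhibitor known to rise as growth plate cells leave the cycle) was at a median of 0.108% in members and 0.0784% in comparison cells, a rise of 0.33 (SE 0.05, adjusted p = 5.69e-05). Ccnd1, with a log2 change of 0.05 (SE 0.12, adjusted p = 0.764), did not pass. It did in 2 of 23 alternatives, over which its change ran from -0.27 to 0.60.

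Cartilage matrix genes were mostly lower by small amounts. Of 23 tested 15 fell and 5 rose, against the 25.7% and 26.3% of all genes, with a median log2 change of -0.24. The list took 4.90% to 7.36% of member UMIs and 5.33% to 7.85% of those of comparison cells, and it was lower in members in 7 of 8 libraries. Chad (chondroadherin, a matrix protein that cells attach to, chromosome 11, 94565047 to 94569127) was 0.00737%, 0.0117%, 0.0108%, 0.00953%, 0.00999%, 0.00876%, 0.0106% and 0.0135% of member UMIs in S1 to S8. Its lowest comparison library (0.0142%, S6) lay above the highest member library, and it fell by 0.88 on the log2 scale (SE 0.06, adjusted p = 2.97e-10). The type IX collagen chains Col9a1, Col9a2 and Col9a3 fell by 0.24, 0.30 and 0.28, Comp by 0.38, Matn4 by 0.51 and Dcn (decorin) by 0.53. Matn1, Matn4 and Comp had a positive change when log2 values were averaged over cells.

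The 5 matrix genes that rose were Vcan, Prelp, Matn3, Hapln1 and Acan. Prelp (a leucine-rich repeat proteoglycan, chromosome 1, 133910304 to 133921414) was 0.0315%, 0.0198%, 0.0254%, 0.0314%, 0.0317%, 0.0304%, 0.0274% and 0.0314% in members of S1 to S8 and 0.0144% to 0.0186% in comparison cells. It was higher in every library and rose by 0.74 (SE 0.06, adjusted p = 5.97e-09). Matn3 (matrilin 3, chromosome 12, 8947929 to 8972028) was 0.164%, 0.0719%, 0.0646%, 0.0825%, 0.155%, 0.170%, 0.163% and 0.154% in members and 0.0733%, 0.0508%, 0.0530%, 0.0386%, 0.101%, 0.124%, 0.115% and 0.111% in comparison cells. Its levels overlapped between the classes, being low in S2, S3 and S4 in both, and within each library it was higher in members, by 0.51 (SE 0.07, adjusted p = 7.91e-06). Vcan (versican) rose by 0.87 from a low level, Hapln1 (link protein) by 0.22, and Acan (aggrecan) by 0.14 (SE 0.05, adjusted p = 0.0223). The Acan call did not hold without S3, S4, S5, S6, S7 or S8 (changes 0.0747 to 0.13, adjusted p = 0.0592 to 0.179) or without the library block (0.396), and with Col2a1 above 3% the change was -0.07 (0.123).

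**Figure D2:**
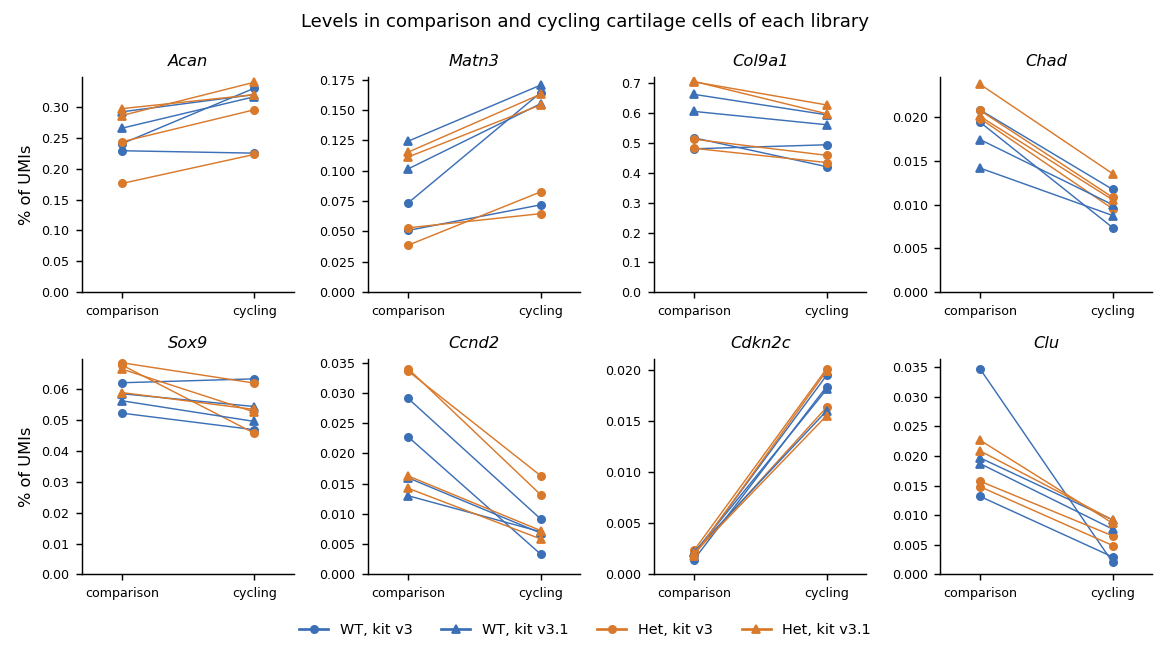
Level of 8 genes (vertical axes, % of UMIs, starting at 0) in comparison and cycling cartilage cells, with a line for each of the 8 libraries, coloured by genotype and with a symbol for the kit version. Chad, Ccnd2 and Clu slope down and Cdkn2c and Matn3 slope up in every library, while the lines of Col9a1 and Sox9 slope down in 7 of 8 and those of Acan up in 7 of 8.

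Transcription factors of the chondrocyte moved by less than 1 log2 unit. Of 13 tested 7 fell and 2 rose (median -0.19). Sox9, the master regulator, was 0.0469%, 0.0635%, 0.0458%, 0.0621%, 0.0496%, 0.0545%, 0.0535% and 0.0527% of member UMIs and 0.0523% to 0.0687% in comparison cells. The classes overlapped, and the log2 change within libraries was -0.26 (SE 0.06, adjusted p = 0.00104). Sox5 and Sox6 fell by 0.24 and 0.19, Zbtb20 by 0.62 and Trps1 by 0.55, and Runx3 rose by 0.55. Averaging over cells made the changes of Sox9, Sox5 and Sox6 positive.

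Col10a1 and Ihh, of hypertrophic and prehypertrophic cartilage, were near the limit of detection in members. Col10a1, the type X collagen of hypertrophic cells, was detected in 3 members of 855. After each cell was thinned to 3000 UMIs it was detected in 0 of 9 to 176 members per library and in at most 0.152% of comparison cells and in none of the haematopoietic-like cells. Ihh was detected in at most 0.680% of thinned members and 0.609% of thinned comparison cells, against at most 0.0728% of haematopoietic-like cells. Col10a1, Ihh and Phospho1 were too low to test. Of the 8 hypertrophy genes tested 3 fell and 1 rose. Mmp13, the collagenase of late hypertrophy, fell by 1.05 and Enpp1, which makes pyrophosphate, rose by 0.91. Pth1r, the receptor of the prehypertrophic zone, did not pass (log2 change -0.10, SE 0.08, adjusted p = 0.299). It passed in 2 of 23 alternatives, with changes from -0.28 to 0.71 over them. It was detected in 13.3% to 28.4% of thinned members, 20.5% to 24.5% of thinned comparison cells and 0.787% to 5.88% of haematopoietic-like cells. Of 6 genes of resting and superficial cartilage 3 fell and none rose (median -0.55). Clu (clusterin, chromosome 14, 65968483 to 65981547) was 0.00201% to 0.00920% in members and 0.0132% to 0.0347% in comparison cells without overlap, and fell by 1.32 on the log2 scale (SE 0.07, adjusted p = 2.08e-11). Gas1 fell by 0.56 and Prg4 (lubricin) by 0.58, and averaging over cells reversed both.

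Of 38 growth signal and receptor genes 18 fell and 6 rose (median -0.26), and the summed level was lower in members in 8 of 8 libraries, at 0.149% to 0.275% against 0.203% to 0.314%. Among ligands Tgfb2 fell by 1.25 (SE 0.11, adjusted p = 1.6e-08), Gdf5 by 0.97, Bmp2 by 0.93 and Tgfb3 by 0.87. Among receptors Bmpr1b fell by 0.87, the growth hormone receptor Ghr by 0.80 and the hedgehog transducer Smo by 0.67, while the hedgehog effectors Gli2 and Gli3 rose by 0.36 and 0.37. Fgfr3, which restrains chondrocyte division, was at 0.0195% to 0.0308% in members and 0.0176% to 0.0240% in comparison cells. It was higher in members in 8 of 8 libraries by level, but its log2 change of 0.10 (SE 0.05) did not pass (adjusted p = 0.11). It passed without cells carrying markers of other types (0.17), without simulated doublets (0.19), without TMM factors (0.14) and by limma on averages over cells (1.08). Igf1r did not pass either (log2 change 0.01, SE 0.07, adjusted p = 0.906), except in 1 of 23 alternatives, over which its change ran from -0.10 to 0.85.

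The genes that fold and export collagen differed by small amounts. Of 29 tested 11 fell and 5 rose (median -0.10), and the summed level was 0.599% to 0.974% in members and 0.603% to 1.01% in comparison cells. Serpinh1 (Hsp47, the procollagen chaperone) had a log2 change of -0.12 (SE 0.04, adjusted p = 0.016), P4ha2 fell by 0.37 and P3h2 by 0.71, while P4ha3 rose by 0.43 and the sulfate transporter Slc26a2 by 0.44. Over 23 alternatives the Serpinh1 call was lost in 5 and its sign reversed in 1. Col1a2, the gene that carries the mutation, had a log2 change of -0.17 between classes and did not pass (SE 0.08, adjusted p = 0.0783), but it passed without simulated doublets (-0.333, adjusted p = 3.86e-05), against cells matched on UMIs (-0.26), and without S4, S5, S6, S7 or S8 (-0.25 to -0.18), among others. It took 0.0858% to 0.228% of member UMIs. Of 8 fibrillar, type VI and type XII collagen genes, 4 fell and none rose, with Col12a1 the largest at -0.86 (SE 0.05, adjusted p = 2.9e-11).

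Stress and metabolic lists had no common direction. In the integrated stress response list 6 of 23 rose and 6 fell (median -0.15). Psat1, of serine synthesis, rose by 2.26 (SE 0.14, adjusted p = 1.95e-10) and Mthfd2, of mitochondrial folate metabolism, by 1.26, whereas the transcription factor Atf3 fell by 1.17. In the ER unfolded protein response list 8 of 22 rose and 6 fell (median -0.01), and the summed level was higher in members in 8 of 8 libraries, with a median of 0.507% against 0.458%. Manf rose by 0.78 and Creld2 by 0.65, Xbp1 fell by 0.54 and Creb3l1 by 0.88, and Hspa5 (BiP) did not pass (log2 change -0.03, SE 0.04, adjusted p = 0.61). Hspa5 passed in 2 of 23 alternatives, and its change ran from -0.20 to 0.57 over them. Of 20 glycolysis and hypoxia genes 5 rose and 7 fell, among them Gapdh, Tpi1 and Pgk1 up by 0.53, 0.62 and 0.64 and Hk2 down by 0.66. Of 15 ribosome biogenesis genes 4 rose and 4 fell, with Nop56 up by 0.71. Of 7 mitochondrial chaperone and protease genes 1 rose and 3 fell, including Hspa9 with a log2 change of -0.24. Of 11 immediate early genes 8 fell and none rose (median -0.39), with Ier2 down by 0.83 and Jund by 0.81, while Fos did not pass (log2 change -0.21, SE 0.11, adjusted p = 0.133), except under 5% mitochondrial reads (-0.31) and without S5, S6, S7 or S8 (-0.37 to -0.29).

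**Figure D3:**
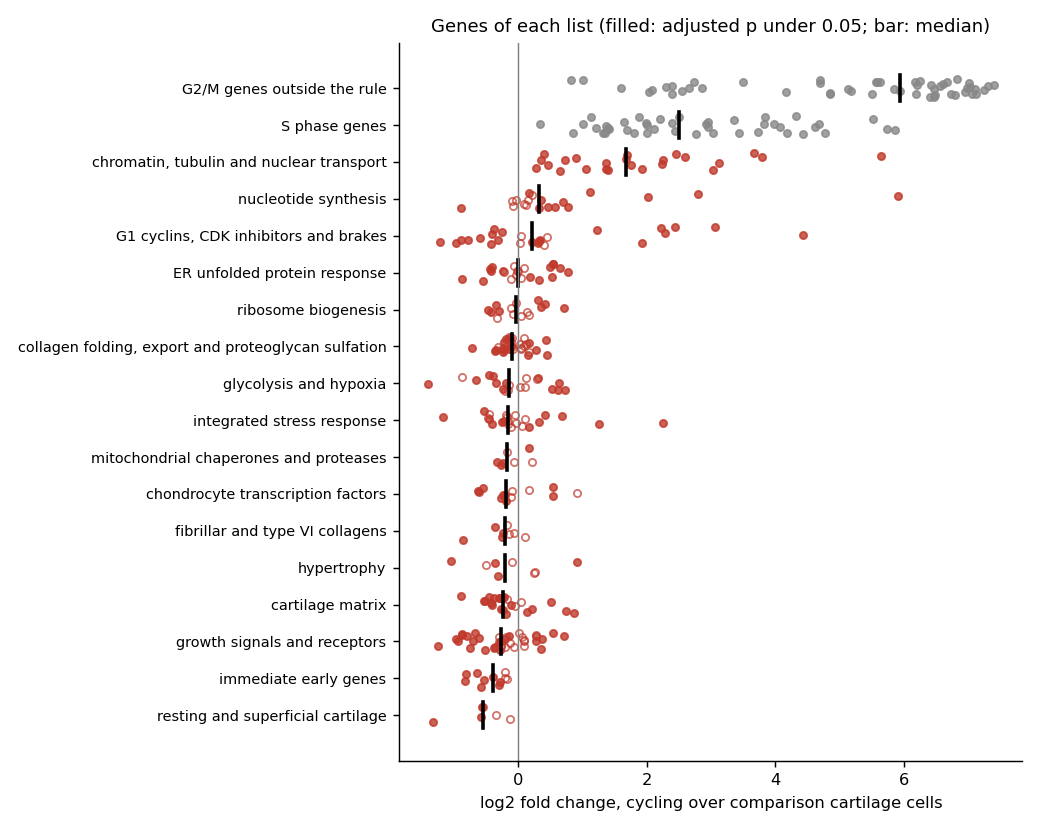
Log2 fold change of each gene, cycling over comparison cartilage cells (horizontal axis), by gene list (vertical axis), with 1 point per gene, filled where the edgeR adjusted p was under 0.05, and a bar at the median of each list. Grey lists follow from the choice of cells and carry no test. The chromatin list (median 1.68) lies wholly above 0, and the resting and superficial list (median -0.55) wholly below.

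Beyond the cycle lists, the 10 largest rises among genes of at least 20 CPM (counts scaled to a common library total) were Iqgap3 (7.49), Depdc1a (7.25), Aspm (7.23), Hist1h2ap (7.04), Esco2 (7.03), Cep55 (7.02), Neil3 (6.98), Hist1h1b (6.89), Troap (6.87) and Pbk (6.85), as log2 changes. In comparison cells these 10 genes averaged only 0.453 (Iqgap3) to 4.59 CPM (Hist1h1b), so they reached 20 CPM through the members. The cells were chosen on genes of dividing cells, so these rises are a description. Aspm, whose promoter is shown above, was at a median of 0.0180% in members and 8.63e-05% in comparison cells. Esco2 acetylates cohesin in S phase, Cep55 acts in the final separation of daughter cells, and Neil3 is a DNA glycosylase. The histone genes share sequence with near-identical copies, so their values are uncertain. The largest falls were in Ogn, Omd, Nbl1, Trp53inp1, Smarca1, Aldoa, Slc16a4, Rassf2, Clu and Gria1. Ogn (osteoglycin, chromosome 13, 49608046 to 49624501) and its neighbour Omd (osteomodulin, 49582462 to 49592822), both small leucine-rich proteoglycans, fell by 1.98 (SE 0.09, adjusted p = 1.59e-12) and 1.84 (SE 0.10, adjusted p = 2.49e-11). Ogn was 0.00201% to 0.0135% in members and 0.0305% to 0.0488% in comparison cells, without overlap. Nbl1, a BMP antagonist, fell by 1.54, Trp53inp1, a p53 target, by 1.46 and the chromatin remodeller Smarca1 by 1.42. The symbol Aldoa belongs to more than 1 identifier in the files, so its fall of 1.41 is uncertain.

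Markers of other cells moved with the class too. Of 9 haematopoietic markers tested 7 rose and none fell, and their summed level was 0.00284% to 0.417% in members and 0.00278% to 0.0882% in comparison cells. Cd68 rose by 2.06 and Ptprc by 1.65. Lyz2 rose by 0.90 over all members and had a log2 change of -0.62 once cells with markers of other types were left out. Cd3e was at 0 in every library of both classes. Of 7 endothelial markers 3 rose (0.00134% to 0.0154% in members, 0.000811% to 0.0209% in comparison cells), and of 5 fibroblast markers 3 fell. None of 7 erythroid or 5 mural markers passed. Of 4 osteoblast markers tested 2 fell. Without cells carrying markers of other types 3287 genes were higher and 3280 lower, and 5929 of them were among the 6615.

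Whether the mutation changed how many cartilage cells were cycling was asked of the share of members among cartilage cells. It was 8.91% in S1, 14.7% in S2, 3.37% in S5 and 8.62% in S6 (WT), and 8.55% in S3, 5.49% in S4, 5.90% in S7 and 6.75% in S8 (Het). The lowest and the highest shares were both WT, so the WT range enclosed the Het range. S2 had the widest exact binomial (Clopper-Pearson) 95% interval after S1, 9.43% to 21.4%, and S5 the narrowest, 2.94% to 3.85%, which cover counting error only. WT libraries averaged 8.89% ± 4.61 (SD, n = 4) and Het libraries 6.67% ± 1.36 (n = 4), a difference of -2.22 percentage points that was smaller than the spread between WT libraries (two-sided exact permutation test, p = 0.429, smallest possible p 0.0286). It was -4.77 points within kit v3 and 0.327 points within kit v3.1. Without S2 it was -0.296 points, without S5 -4.06 points (exact permutation p = 0.0571), and without cells carrying markers of other types -0.769 points.

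Detection of the 6 genes depends on depth, and 3726 of the 4463 cartilage cells under 3000 UMIs were in S5. Among the other 10907 cells, the shares were 8.91%, 14.9%, 8.70%, 6.66%, 6.55%, 8.57%, 6.14% and 6.88% in S1 to S8, so that S5 rose from 3.37% to 6.55% and the lowest library was S7, a Het library. The difference between genotypes was then -2.63 points (exact permutation p = 0.229). The share was also taken after thinning these cells to 3000 UMIs each. Thinned shares were 6.93%, 12.2%, 6.56%, 5.44%, 4.34%, 5.19%, 3.09% and 4.61% in S1 to S8, with 507 thinned members in all. S2 stayed highest and S7 lowest, and the difference between genotypes was -2.23 points (exact permutation p = 0.343). The spread between WT libraries exceeded the difference between genotypes on all 3 scales.

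**Figure D4:**
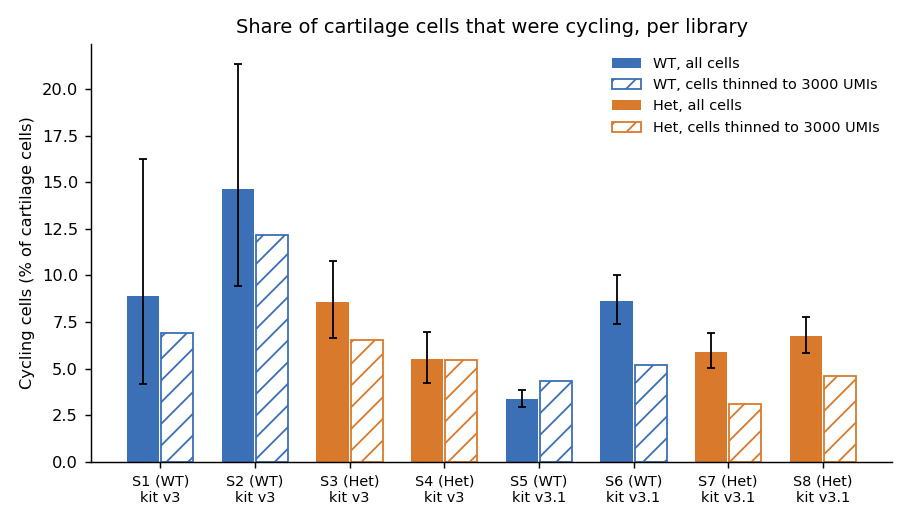
Share of cartilage cells that were cycling (vertical axis, %) in each library (horizontal axis, with genotype and kit version), from all cells (filled bars, with exact 95% binomial intervals that cover counting error only) and after thinning each cell to 3000 UMIs (hatched bars). WT libraries span 3.37% to 14.7% and Het libraries 5.49% to 8.55%.

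The balance of phases within members was asked next, as the log2 ratio of S phase to G2/M UMIs. It was -1.54 in S2, -1.82 in S5 and -1.72 in S6 (WT), and -1.95 in S3, -1.66 in S4, -1.44 in S7 and -1.51 in S8 (Het). Het values lay on both sides of the WT values. The means were -1.69 ± 0.14 (SD, n = 3) and -1.64 ± 0.22 (n = 4), a difference of 0.05 (two-sided exact permutation test, p = 0.714, smallest possible p 0.0286). It was -0.26 within kit v3 and 0.29 within kit v3.1, and with at least 4 of the 6 genes it was -0.01. With members thinned to 3000 UMIs it was 0.27 and without simulated doublets 0.25 (exact permutation p = 0.171 for both), so the size and the sign depended on the setting.

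Within members, WT and Het were then compared over all genes, with kit version in the edgeR model and 3 WT and 4 Het libraries. Values within kit v3 therefore rest on 1 WT library, S2, with 22 members. Of 11899 genes tested 57 (0.479%) passed, 8 higher in Het (0.0672%) and 49 lower (0.412%), and 618 had an unadjusted p under 0.05. Most of the 57 rested on a handful of cells. In 41 of them 5 cells held at least 50% of all UMIs, 33 were detected in under 5% of members, and 11 were in marker lists of other cell types. Without members carrying markers of other types 15 of the 57 passed, and without simulated doublets 8. Without kit version in the model no gene passed edgeR's threshold, and 136 had an unadjusted p under 0.05. DESeq2 called 10 genes.

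Several of the strongest falls were in genes of antigen-presenting and other blood cells. Cd74 (the MHC class II invariant chain) was 0.00134%, 0.000733%, 0.0134% and 0.0131% of member UMIs in the WT libraries (S1, S2, S5, S6), and 0.000637%, 0.000406%, 0.000529% and 0.000767% in the Het libraries (S3, S4, S7, S8). Only S5 and S6 stood out, and S2 lay within the Het range. The log2 change was -4.13 (SE 0.26, adjusted p = 4.14e-08), with 93.2% of the 993 UMIs in 5 cells, and it was 0.56 without members carrying markers of other types. H2-Aa and H2-Ab1, of the same complex, had changes of -4.51 and -4.54, with 93.1% and 91.6% of their UMIs in 5 cells. Without members carrying markers of other types H2-Ab1 had -0.88 and did not pass (adjusted p = 1). S100a8, a neutrophil gene, had -9.43, with 97.0% of its UMIs in 5 cells. S2 alone held 1008 of its 1343 UMIs and S1 another 311, and within kit v3.1 the change was -1.475. The endothelial markers Emcn, Cdh5 and Kdr had changes of -3.66, -3.92 and -3.35. S1 and S2 had 0 UMIs of each of these 3 genes, so the changes rest on kit v3.1 (-3.94, -4.26 and -3.57 within it), and they passed in 4, 4 and 3 of the 7 fits that left out 1 library. The summed haematopoietic markers took 0.256%, 0.417%, 0.0174% and 0.0108% of member UMIs in the 4 WT libraries and 0.00284% to 0.0147% in Het. The endothelial markers were 0.00134%, 0.00147%, 0.0154% and 0.0147% in WT and 0.00153% to 0.0136% in Het, and the erythroid markers 0.00641% to 1.97% in WT and 0.00165% to 0.581% in Het. Of the marker lists, 2 of 9 haematopoietic, 5 of 7 erythroid, 3 of 6 endothelial and 1 of 6 osteoblast genes fell and none rose.

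**Figure D5:**
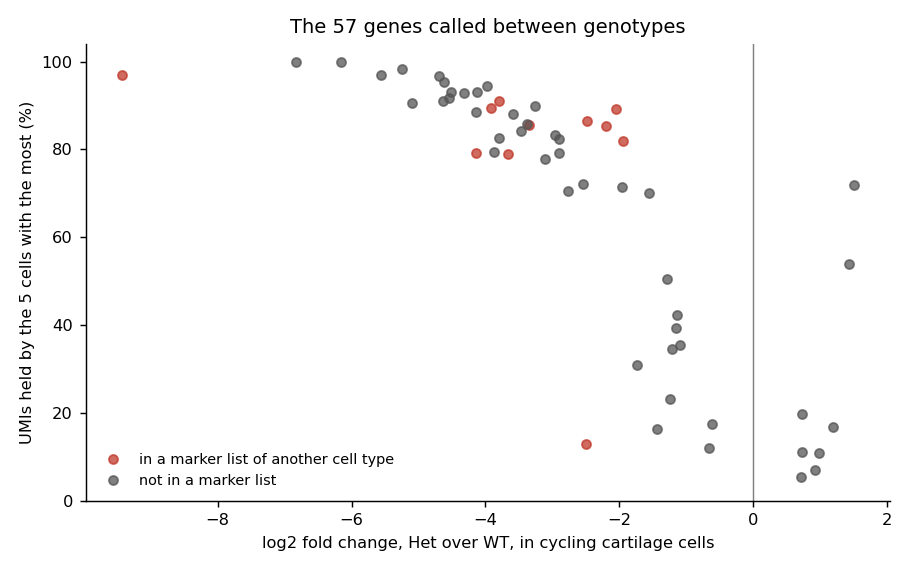
The 57 genes that passed between genotypes in cycling cartilage cells, by log2 fold change of Het over WT (horizontal axis) and by the share of the gene's UMIs in members held by the 5 cells with the most (vertical axis, %), with genes of other cells' marker lists in red. Falls of more than 3 log2 units lie at 77.9% or above on the vertical axis, and 41 of the 57 genes lie at or above 50%.

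A smaller set was spread over more members. Rgcc (regulator of cell cycle, chromosome 14, 79288756 to 79301645) was 0.00067%, 0.00697%, 0.00558% and 0.00496% of member UMIs in the WT libraries (S1, S2, S5, S6) and 0.00166%, 0.00304%, 0.00188% and 0.00128% in the Het libraries (S3, S4, S7, S8). The 3 WT libraries tested lay above all Het libraries, but S1, with 1 UMI, lay below them. Rgcc was detected in 23.0% of members, with 30.9% of its 528 UMIs in 5 cells and 82 UMIs in 1 cell. It fell by 1.73 on the log2 scale (SE 0.19, adjusted p = 5.94e-05), by 1.565 within kit v3 and 1.71 within kit v3.1. It passed in all 7 fits that left out 1 library. It did not pass without cells carrying markers of other types (-1.07, adjusted p = 0.114), without simulated doublets (-1.02, 0.231), after thinning (-1.31, 0.0934), without kit version (-1.61, 0.871) or by limma on averages over cells (-0.80, 1).

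Tnc (tenascin-C, a matrix glycoprotein, chromosome 4, 63959785 to 64047015) was 0.0114%, 0.0180%, 0.0175% and 0.0153% of member UMIs in the WT libraries (S1, S2, S5, S6) and 0.00931%, 0.00953%, 0.0111% and 0.0116% in the Het libraries (S3, S4, S7, S8). The 3 WT libraries tested lay above all Het libraries, and S1 lay among them. Tnc was detected in 55.8% of members and fell by 0.61 on the log2 scale (SE 0.11, adjusted p = 0.0155), by 0.90 within kit v3 and 0.54 within kit v3.1. It did not pass without simulated doublets (adjusted p = 0.101), after thinning (0.0934), under the replicate block (0.0839) or in 3 of the 7 fits that left out 1 library. By limma on averages over cells Tnc did not pass either (-0.97), and it passed in 12 of 23 alternatives in all. Mybpc1, a myosin-binding protein gene, had a log2 change of -0.66 (SE 0.14, adjusted p = 0.0355) but -0.05 within kit v3, and passed in 2 of the 7 fits that left out 1 library. Bglap (osteocalcin) had -2.502 (SE 0.43, adjusted p = 0.00981) at a median of 0.000718% of member UMIs, and near-identical copies can share its reads. It did not pass without S5, S6, S7 or S8 (adjusted p = 0.0758 to 0.137).

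Pdgfa (platelet-derived growth factor A, chromosome 5, 138976014 to 138997370) was 0.00134%, 0.000733%, 0.00121% and 0.00138% of member UMIs in the WT libraries (S1, S2, S5, S6) and 0.00497%, 0.00467%, 0.00309% and 0.00244% in the Het libraries (S3, S4, S7, S8). All Het libraries lay above all WT libraries, S1 included. It was detected in 16.0% of WT and 26.3% of Het members, and the log2 change was 1.19 (SE 0.22, adjusted p = 0.013), 2.59 within kit v3 and 1.01 within kit v3.1. The value within kit v3 rests on 2 Pdgfa UMIs in S2. The rise did not pass without simulated doublets (1.14, adjusted p = 0.22), by DESeq2 (0.0662), after thinning (0.127), under the replicate block (0.0661), by limma (0.943), or without S5 or S7 (0.134 for both). Nor did it with at least 2 of the 6 genes, which brought in S1 (0.67, adjusted p = 0.573). With Col2a1 over 3% (1.09, adjusted p = 0.15) and without kit version (1.59) it did not pass either. Sfrp1, a secreted Wnt antagonist, rose by 0.92 (SE 0.18, adjusted p = 0.0268), but S1, at 0.00872%, was the highest of all libraries, and the rise passed in 1 of the 7 fits that left out 1 library. The other rises were Mrc1 (1.51, with 72.0% of its UMIs in 5 cells), Ptgds (1.43, with 53.9% in 5 cells), Sema3c (0.99, but 0.0860 within kit v3), Adamts12 (0.74), Peg10 (0.73) and Gm42418 (0.71). Without simulated doublets Ptgds had 0.43 and did not pass (adjusted p = 0.982), and by DESeq2 only Mrc1 of the 8 rises passed. None of the 8 rises passed in all 7 fits that left out 1 library, and 6 of the 49 falls did (H2-Aa, Cd52, Cd74, Hba-a1, Hbb-bs and Rgcc). Another 7 falls passed in each fit that tested them, which were 3 or 5 of the 7.

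The lists of cartilage and cell cycle genes held few calls between genotypes, as did all genes (0.479%), so a count of 0 in a list of this size is not a result about the list. None of 43 S phase, 51 G2/M, 23 cartilage matrix, 29 collagen folding, 23 integrated stress response or 22 unfolded protein response genes passed edgeR's threshold in members, with 3, 0, 0, 0, 1 and 0 of them at an unadjusted p under 0.05. Their median log2 changes were 0.14, -0.04, 0.04, 0.00, 0.03 and 0.07, beside 0.01 over all genes. Igfbp2 was the only growth signal gene of 38 to pass (log2 change -1.24, SE 0.27, adjusted p = 0.0478), and it passed in only 1 of the 7 fits that left out 1 library. Acan had 0.11 (SE 0.11), Sox9 -0.06 (SE 0.11), Col1a2 0.01 (SE 0.25), Serpinh1 -0.13 (SE 0.11), Hspa5 0.03 (SE 0.10), Atf4 0.10 (SE 0.12), Hspa9 0.19 (SE 0.13), Pcna 0.27 (SE 0.14), Ccnd2 0.06 (SE 0.15) and Cdkn1c 0.21 (SE 0.12), all with adjusted p above 0.9. Col1a2 differed by 1.21 within kit v3 and -0.58 within kit v3.1.

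Whether the genotype acted differently in cycling and comparison cells was tested as a genotype by class term. Of 12735 genes 23 (0.181%) passed, 3 with a higher Het to WT change in members (0.0236%) and 20 with a lower one (0.157%), and 589 had an unadjusted p under 0.05. In 19 of the 23 genes 5 cells held at least 50% of the UMIs in members, 5 were in marker lists, and without cells carrying markers of other types the 3 higher ones passed and none of the 20 lower ones. Without simulated doublets 1 of the 3 and none of the 20 passed. The 3 higher ones were Pdgfa (difference of log2 changes 1.19, SE 0.21, adjusted p = 0.0184), the guidance cue Slit2 (2.365, SE 0.45, adjusted p = 0.0288) and the kinetochore gene Ndc80, a member of the G2/M list (1.585). Against comparison cells matched on UMIs the difference for Pdgfa was 0.78 and did not pass (adjusted p = 0.744), nor did it by DESeq2 (0.101), without simulated doublets (0.115) or without S3, S5 or S7 (0.0841 to 0.111). The Pdgfa call was also lost with at least 2 of the 6 genes (0.61, adjusted p = 0.611) and with Col2a1 over 3% (1.04, adjusted p = 0.219). Slit2 was detected in 3.86% of members, with 62.5% of its UMIs in 5 cells. It changed sign without simulated doublets (-0.13) and did not pass against matched cells (1.82, adjusted p = 0.491) or by DESeq2 (0.321). Pdgfa ran from 0.00465% to 0.00951% in comparison cells and was lower in members in every library. Ndc80 lay between 0.00649% and 0.0127% in members and at most at 0.000603% in comparison cells, which were chosen for at most 1 of the 6 selection genes and held 0 to 3 of its UMIs in S1 to S4. It passed the count filter through the members, so its value is a description. It did not pass against matched cells (adjusted p = 0.121), by DESeq2 (0.296) or after thinning (0.651). The falls included Cd74 (-4.24), H2-Ab1 (-4.70) and Emcn (-3.73). Without cells carrying markers of other types Cd74 had 1.46 and H2-Ab1 -0.14, and without simulated doublets they had 0.78 and -0.78. After thinning to 3000 UMIs and by limma on averages over cells no gene passed, with 433 and 395 at an unadjusted p under 0.05.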

How the data were processed

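Single cells of 8 libraries were sequenced by 10x Genomics 3′ chemistry. The deposited values were raw UMI counts per gene and barcode in filtered matrices, made by the authors with Cell Ranger on mm10 (release 5.0.0 for S1 to S4 and 6.0.1 for S5 to S8, per the file headers), for 31053 genes. They are whole numbers, with no normalization, and doublets had not been marked in them. The members, gene lists and comparisons were chosen with earlier results of these data known.

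Cells were kept and classed by the stated rule. Haematopoietic-like cells, used as background, had at least 3 markers of that class, did not exceed the Col2a1 limit and lay outside the osteoblast criteria. Simulated doublets were marked at 0.8% per 1000 cells from the 30 nearest neighbours of 1500 genes in 20 components, and kept. Levels are percent of UMIs summed per library and class. Sums were tested with edgeR 4.0.16 (quasi-likelihood, TMM scaling, Benjamini-Hochberg adjustment, threshold 0.05) in R 4.3.3, with the library as block between classes and kit version as covariate between genotypes, in libraries with at least 10 members. Shares and phase ratios were tested by exact permutation over libraries (numpy 2.4.6). Nothing states that libraries of 1 genotype came from different litters, so p-values cover only the spread between these libraries. The code was tested on simulated data. Counting intervals cover 95% (scipy 1.17.1).

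Named genes came from the lists or were the 10 largest rises and 10 largest falls per comparison among genes that passed, had at least 20 CPM and kept 1 direction in every library (between classes) or both kit versions (between genotypes). Genes of the rule, the S phase and G2/M lists, haemoglobin and sex-linked marker genes were left out of that choice. Alternatives changed the number of selection genes, the Col2a1 and mitochondrial limits, depth, doublets, the scaling, the filter on low counts, the tool (DESeq2 1.42.0, limma 3.58.1), the blocks and the libraries. Gene coordinates are of GRCm38 (mm10), and promoters are RefSeq windows of GRCm38.p6. The values of 1 gene of the nucleotide synthesis list are not reported here.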

Additional observations from a re-analysis of the deposited data

Results flagged for a closer look

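In members, 6 of 81 groups of 4 libraries held a library far from the other 3, and chance gives about 1 in 20. Among WT libraries, S1 was low in the summed G1 cyclins, inhibitors and brakes (0.228% of UMIs). S2 was high in mitochondrial chaperones (0.0733%) and in erythroid markers (1.97%), and low in Acan (0.225%) and Matn3 (0.0719%). Among Het libraries, S4 was high in endothelial markers (0.0136%). S1 and S2 held 9 and 22 members.

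The genotype change differed between cycling and comparison cells, by the test of that difference, in 3 genes that were higher and 20 that were lower. They included Pdgfa (1.19 on the log2 scale), which did not pass against comparison cells matched on UMIs (0.78, adjusted p = 0.744, edgeR), and Cd74 (-4.24), which changed sign without cells carrying markers of other types (1.46), without simulated doublets (0.78) and with Col2a1 over 3% (0.91). In S1 to S8, Pdgfa was lower in cycling than in comparison cells in every library.

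The cartilage cells with exactly 2 of the 6 selection genes, which belonged to neither class, had 0.138% of their UMIs in the S phase list as a mean of the 8 libraries, against 0.0602% in cells with none of the 6.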

How the results depend on the processing

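Between classes, the counts of genes stayed within 1.5 times except without the library block (2749 genes, 1739 higher and 1010 lower) and with log2 values averaged over cells in limma (6241 higher, 190 lower). Leaving out 1 library gave 6208 to 6795 genes, 2561 to 3444 higher and 3166 to 3845 lower, with the lower ones in the majority without S5, S6, S7 or S8, as also under 5% mitochondrial reads (2644 and 3823). Averaging over cells reversed Matn4 (0.0307), Comp (0.10), Matn1 (0.35), Sox9 (0.62), Sox5 (0.0306), Sox6 (0.13), Gas1 (0.27), Prg4 (0.235), Serpinh1 (0.36), P4ha2 (0.47), Mybbp1a (0.0307) and Hspa9 (0.35). A Col2a1 limit of 3% reversed Acan (-0.0710). Lyz2 reversed without cells carrying other markers (-0.62), without doublets (-0.006256) and against cells matched on UMIs (-0.20). The causes were not tested. Asking for other cartilage genes left out no member, and at least 30 members per library is the same fit as without S2.

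Between genotypes, the 57 genes (8 higher, 49 lower) became 13 with at least 2 selection genes, which also brought S1 into the fit (0 higher, 13 lower), 4 after thinning (2 and 2), 29 with Col2a1 over 3% (10 and 19), 21 without other markers (8 and 13), 12 without doublets (5 and 7), 10 by DESeq2 (1 and 9), 234 without the filter on low counts (31 and 203), 16 by limma on averages over cells (0 and 16), 86 with at least 30 members per library (7 and 79) and 0 without kit version (0 and 0). Their unadjusted counts were 420, 364 and 136 for the settings with a 0. Without 1 library there were 16 to 86 genes, 3 to 7 higher and 13 to 79 lower, the fewest without S5 and the most without S2. Cd74 reversed with Col2a1 over 3% (1.09) and without other markers (0.56).

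For the genotype by class term, the 23 genes (3 higher, 20 lower) became 8 with at least 2 selection genes and S1 added (2 and 6), 0 after thinning (0 and 0), 5 with Col2a1 over 3% (4 and 1), 31 under 5% mitochondrial reads (7 and 24), 11 without other markers (10 and 1), 10 without doublets (10 and 0), 41 with at least 3000 UMIs per cell (2 and 39), 43 against matched cells (3 and 40), 2 by DESeq2 (0 and 2), 173 without the filter (87 and 86), 0 by limma (0 and 0), 31 with at least 30 members (6 and 25) and 30 with a kit by class term (6 and 24). Without 1 library there were 6 to 64 genes, 0 to 48 higher and 5 to 27 lower, the fewest without S3 or S7 and the most without S6. Cd74 reversed with Col2a1 over 3% (0.91), without other markers (1.46) and without doublets (0.78), as did Slit2 without doublets (-0.13).

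The difference in cycling share ran from -4.06 to -0.296 points without 1 library, and over all cells it was positive within kit v3.1 (0.327 points). Among cells with at least 3000 UMIs, kit v3.1 shares were 6.55% and 8.57% in WT and 6.14% and 6.88% in Het. After thinning they were 4.34% and 5.19% in WT and 3.09% and 4.61% in Het, so that sign depended on depth. The phase ratio reversed with at least 4 selection genes (-0.005419) and ran from -0.01072 to 0.16 without 1 library and up to 0.27 with members thinned. Labels say only that libraries share a number within a kit. In kit v3.1 their deviations did not go together (correlation -0.02 over 11899 genes), and in kit v3, where S1 has 9 members, this was not checked. A replicate block in place of kit version gave 41 genes between genotypes over 6 libraries (3 higher, 38 lower), a share difference of -2.22 points over 8 libraries and a phase ratio difference of 0.16 over 6. The exact sign-flip tests of the last 2 could not go below p = 0.125 and 0.25 and did not reach those values. The limits of 3000 UMIs per cell, scaling by totals alone and the kit by class term were chosen after seeing the data. Depth limits low genes most in S1, S2 and the comparison cells of S5.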
